A study of Mus musculus with 4 samples.

Results

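The Frizzled receptors, the Lrp5 and Lrp6 co-receptors, the Ryk receptor and the Wnt-modifying enzyme Porcn were examined in intestinal adenomas of ApcMin mice. The set was taken by gene symbol and holds 10 of the 17762 genes listed in at least 1 library: Fzd1, Fzd4, Fzd5, Fzd6, Fzd7, Fzd8, Lrp5, Lrp6, Ryk and Porcn. Polyadenylated RNA was sequenced in 4 libraries, 2 from ApcMin mice labelled Strap KO and 2 from ApcMin mice labelled Strap WT. All were C57BL/6 animals aged 110 days, and both groups carry the Apc mutation. The series text names the mutant StrapIEKO. The sources used here do not state the promoter and cells in which Strap was deleted, nor how many animals stand behind a library. P-values therefore measure the spread between these libraries. The X-silencing transcript Xist had 2890 and 14 counts in KO and 15082 and 3 counts in WT. The Y-linked Ddx3y had 0 and 489 counts in KO and 0 and 603 counts in WT. The 2 libraries of a genotype are thus not technical repeats of 1 animal.

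Wnt proteins are lipid-modified in the secreting cell by Porcn and bind a Frizzled, a receptor with a cysteine-rich outer domain and a membrane core like that of G protein-coupled receptors, together with Lrp5 or Lrp6. The paired receptors recruit Dishevelled and Axin, which keeps beta-catenin from being degraded, and this signal maintains the stem cells of the intestinal crypt. Apc acts below the receptors in beta-catenin degradation, so cells that lose Apc signal with less need of a ligand. Ryk binds Wnt with a different outer domain and has an inactive kinase domain.

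The 4 libraries held between 14084831 and 15640941 expected counts, and all 10 genes were listed in every one and passed the filter on low counts. Fzd1, with 6 and 2 counts in KO, passed it through its WT counts alone. Strap itself had 20.5 and 24.8 CPM in the KO libraries, against 157 and 112 CPM in the WT libraries, where CPM are counts scaled to library size with TMM factors. Apc, mutated in both groups, had 1403 and 2109 counts in KO, against 2837 and 2120 counts in WT. The 8 epithelial markers (Epcam, Cdh1, Vil1 and others) were listed in every library and summed to 13700 and 10200 CPM in KO and 11800 and 13800 CPM in WT. The tissue is labelled colon adenoma. All 8 small intestine markers were listed in every library. Apoa1 had 5000 and 4100 CPM in KO and 7930 and 2630 CPM in WT. Other genes of this list were less even. Fabp6 had 894 and 118 CPM in KO and 422 and 2450 CPM in WT. Gata4 had 156 and 165 CPM in KO and 134 and 27.3 CPM in WT. The part of this unevenness in the differences between genotypes was not tested. The 8 colon markers were split. Car4 had 323 and 220 CPM in KO and 157 and 107 CPM in WT, and Sprr2a1 had 558 and 1490 CPM in KO and 3480 and 2070 CPM in WT. Car1 reached 4.22 CPM, in WT replicate 2, and Aqp8, Hoxb13, Hoxd13, Insl5 and Slc37a2 stayed below 1 CPM in all 4 libraries. Endothelial markers summed to 2.05 and 2.73 CPM in KO and 45.4 and 3.05 CPM in WT, with 5 and 6 of 9 listed in KO and 8 and 7 in WT. The high sum in WT replicate 1 came mostly from Cdh5, at 35.6 CPM, with Vwf at 4.81 and Tek at 3.08 CPM. Pecam1 was highest in KO replicate 2, at 1.29 CPM, and Tie1 in KO replicate 1, at 0.615 CPM, and Cldn5 was not listed in any library. T and natural killer cell markers were high in KO replicate 2 (34 and 313 CPM in KO, 57.4 and 41.3 CPM in WT, 9 of 10 listed in each). Paneth cell markers were high in WT replicate 2 (13000 and 8120 CPM in KO, 10500 and 28000 CPM in WT, 8 of 8 listed in each).

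FPKM scales a level by transcript length and library size and so allows genes to be compared. Ranked by FPKM, the 9 receptors of the set fell into tiers. Fzd5 came first in 4 of 4 libraries with a mean of 48.1 FPKM, above 85.8% of the 12769 genes tested, whose median was 9.88 FPKM. Lrp5 and Ryk followed at 28.1 and 24.8 FPKM. Their order differed in WT replicate 2, so they were not separated. Lrp6 had rank 4 in every library at 11.2 FPKM, with a range that met neither Ryk above it nor Fzd7 below it. Fzd7, at 4.71 FPKM, and Fzd6, at 2.67 FPKM, changed places in WT replicate 1. Fzd6 lay above Fzd8 in 4 of 4 libraries, although their ranges overlapped. Fzd8, Fzd1 and Fzd4 had means of 1.31, 0.953 and 0.912 FPKM and no fixed order over the 4 libraries. Within KO, Fzd1 was the lowest of these 9 receptors in both libraries. Porcn, an enzyme and so outside this ranking, had a mean of 1.95 FPKM.

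**Figure D1:**
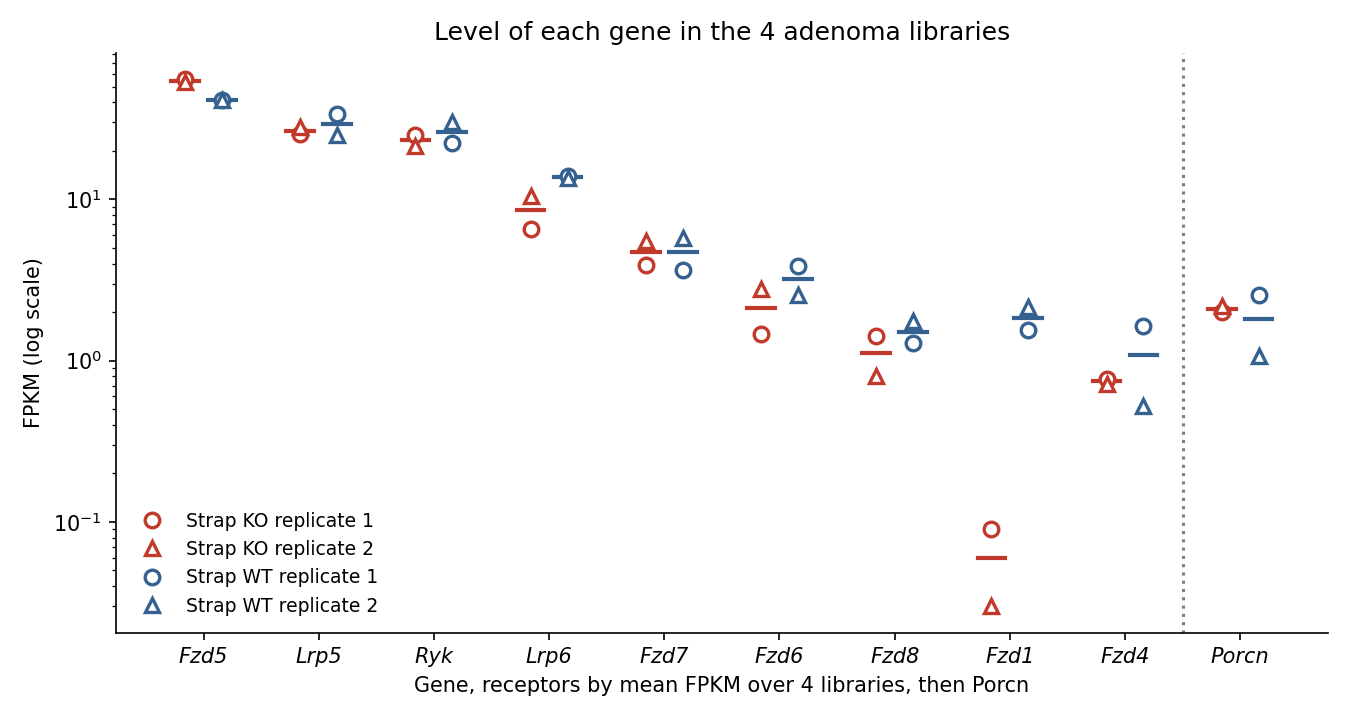
FPKM of each gene on a log scale in each library, with Strap KO in red at the left of each pair and Strap WT in blue at the right. Circles are replicate 1, triangles are replicate 2 and bars are the mean of 2 libraries. Fzd5 stands highest in every library, between 41.5 and 55.53 FPKM, and Fzd1 lies at 0.09 and 0.03 FPKM in KO, against 1.55 and 2.14 FPKM in WT.

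The comparison asked how the receptor genes differ when Strap is targeted in ApcMin adenomas. No gene of the set passed an adjusted p of 0.05 in edgeR's quasi-likelihood test, in either direction. Over all genes that test called 0.00783% higher in KO and 0% lower. At an unadjusted p under 0.05 there were 0 of the set higher and 2 lower (Fzd1 and Lrp6), beside 904 higher and 1109 lower among all genes. DESeq2 called Fzd1 lower and no other gene of the set, where it called 1.82% of all genes higher and 3.32% lower. Of the set, 3 genes were higher and 7 lower in KO, with a median log2 fold change of -0.26, beside a median of 0.00 over all genes tested. Fzd1 passed the filter through its WT counts alone, so the filter bears on this direction count and on the median of the set. The groups did not overlap in 3 genes, with KO above WT for Fzd5 and below it for Fzd1 and Lrp6. Among all genes tested 25.5% had KO above WT in this way and 24.6% had KO below.

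**Figure D2:**
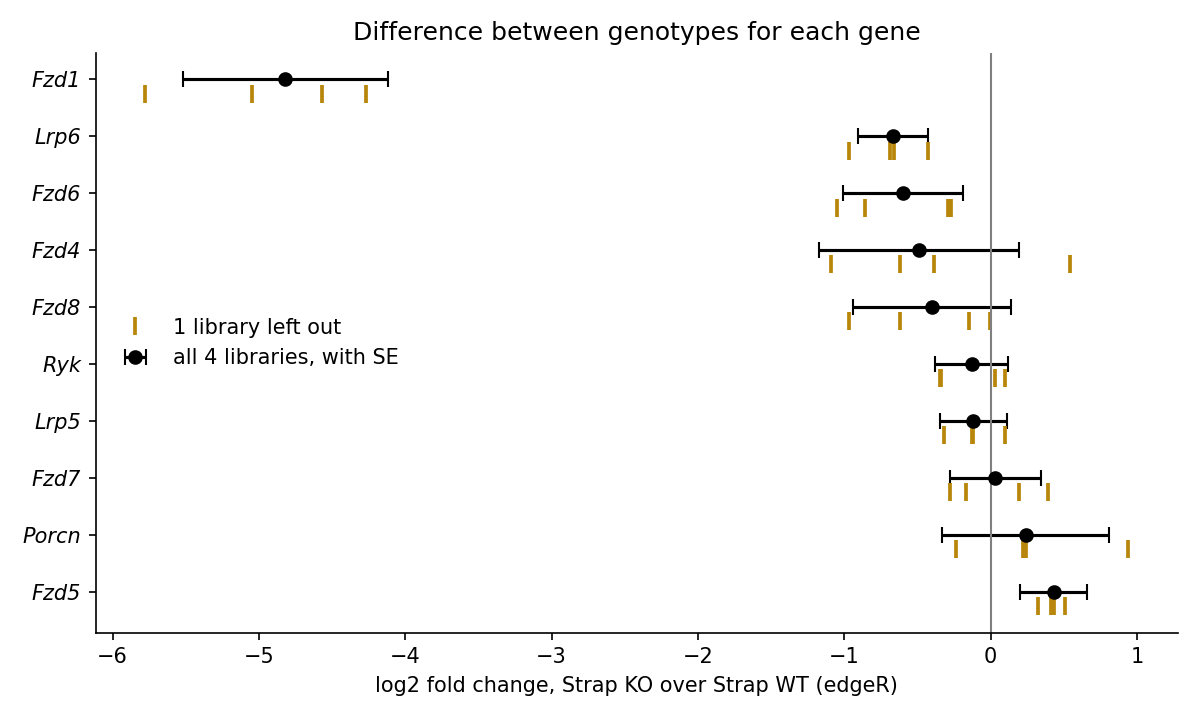
Log2 fold change of each gene, Strap KO over Strap WT, from edgeR with all 4 libraries (black points, bars are the SE) and with each library left out in turn (gold ticks). Fzd1 lies near -4.82 and lies between -5.78 and -4.27 in the refits, while the ticks of Fzd4, Fzd7, Lrp5, Ryk and Porcn fall on both sides of 0.

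Fzd1 (gene 14362, GRCm38.p6 chr5:4753839-4758216), which encodes a receptor that can signal through beta-catenin, had the largest difference of the set. Its expected counts were 6 and 2 in KO replicates 1 and 2, against 104 and 142 in WT replicates 1 and 2. Only the WT counts brought it past the filter on low counts. The groups did not overlap, and the 2 WT libraries were nearer to each other than to either KO library. In FPKM it averaged 0.06 ± 0.0424 in KO and 1.85 ± 0.417 in WT (SD, n = 2 each). Its log2 fold change was -4.82 (SE 0.70), with an adjusted p of 0.105 in edgeR and 3.64e-07 in DESeq2. Over 13 alternative settings the adjusted p lay between 3.64e-07 and 0.66. Summed over each genotype and scaled to depth, KO held 3.36% of the WT counts, with an exact 95% interval from 1.43% to 6.72% that covers counting error only. With 1 library left out the log2 fold change lay between -5.78 and -4.27, and it was -5.05 without WT replicate 1, the library with high Cdh5. On FPKM it was smaller, -1.42 with limma on log2(FPKM + 1) and -3.61 on log2(FPKM + 0.1), scales that understate changes of low genes. Replicate number coincided with the pattern of the X-silencing transcript Xist, high in replicate 1 and low in replicate 2 of both genotypes. Fzd1 had 6 counts in KO against 104 in WT where Xist was high, and 2 in KO against 142 in WT where it was low. Lower KO counts within each pattern follow from groups that do not overlap. With this pattern, which is also the replicate number, as a block, the edgeR adjusted p was 0.0494. With a crossed block, which does not follow Xist and was chosen after seeing the data, the edgeR adjusted p was 0.0333. Whether fewer cells with the transcript or less transcript per cell stands behind a difference cannot be told apart in bulk RNA.

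Markers of stromal cells were low next to those of epithelium. The fibroblast markers summed to 81.4 and 94.7 CPM in KO and 90.1 and 55.9 CPM in WT, with 7 and 9 of 10 listed in KO and 10 and 8 in WT. Fbln1 carried most of that sum, and the collagen genes Col1a1, Col1a2 and Col3a1 had between 1 and 30 counts in each library. Pdgfra had 1 and 0 counts in KO, against 85 and 5 in WT, so it was high in WT replicate 1 alone. The smooth muscle markers summed to 1.91 and 3.27 CPM in KO and 5.07 and 2.34 CPM in WT, with 2 and 7 of 8 listed in KO and 5 and 2 in WT. Enteric neuron and glia markers summed to 2.6 and 3.68 CPM in KO and 28.9 and 8.82 CPM in WT, with 3 and 3 of 8 listed in KO and 4 and 4 in WT. Ret, with 27 and 30 counts in KO, against 421 and 101 in WT, made up most of the WT sum, while Sox10 and Gfap were not listed in any library. The part of these cells in the Fzd1 difference was not tested.

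Fzd5 (gene 14367, chr1:64730558-64737750) is the Frizzled known in mice for the maturation of Paneth cells. It had 55.53 and 53.64 FPKM in KO replicates 1 and 2, against 41.56 and 41.5 FPKM in WT replicates 1 and 2. KO was above WT in every pairing of libraries, and on this scale the libraries of 1 genotype differed little. The KO libraries were further apart in CPM, with 407 and 352 in KO, against 282 and 281 in WT. On the log2 scale the difference was 0.43 (SE 0.23), with an adjusted p of 0.409 in edgeR and 0.358 in DESeq2, and between 0.333 and 0.818 over 13 settings. The Paneth sums given above overlapped between the genotypes, and their part in the Fzd5 level was not tested.

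The starts of Fzd1 and Fzd5 are shown because these genes carry the largest difference and the highest level. Each sequence is the 250 bases before the RefSeq start in GRCm38.p6, read on the minus strand, from chr5:4758217-4758466 for Fzd1 and chr1:64737751-64738000 for Fzd5. Capitals mark 4 motifs searched on both strands: the TCF core in the form CTTTGA, the GC box GGGCGG, the TATA box TATAAA and the CCAAT box.
Fzd1: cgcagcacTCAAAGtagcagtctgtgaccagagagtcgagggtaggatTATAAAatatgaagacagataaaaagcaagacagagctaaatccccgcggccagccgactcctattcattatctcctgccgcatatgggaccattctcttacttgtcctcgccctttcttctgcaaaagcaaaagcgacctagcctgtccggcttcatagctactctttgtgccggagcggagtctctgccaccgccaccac
Fzd5: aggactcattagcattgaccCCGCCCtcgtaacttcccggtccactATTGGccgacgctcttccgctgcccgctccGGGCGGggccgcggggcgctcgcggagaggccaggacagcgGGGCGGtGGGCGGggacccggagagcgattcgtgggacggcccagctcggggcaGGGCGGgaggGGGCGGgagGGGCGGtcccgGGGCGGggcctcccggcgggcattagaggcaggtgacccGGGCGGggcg
The Fzd1 window holds 1 TCF core, 242 bases before the start, and 1 TATA box, 202 bases before it. The Fzd5 window holds 9 GC boxes and 1 CCAAT box. Counted with the 50 bases after the start, 54% of the Fzd1 bases are G or C with 16 CpG pairs, against 75.7% and 38 pairs for Fzd5. Over 32851 mouse promoters of this length the medians are 52.7% and 7 pairs. The TCF core is in 16% of them, the GC box in 35.7%, the TATA box in 13.6% and the CCAAT box in 37.4%. Among the 5 genes of the set matched to a promoter sequence, the exact letters CTTTGA were found in Fzd1 alone. The GC box was found in Fzd4, Fzd5, Fzd7 and Ryk. Other forms of the TCF site were not searched, so their absence from the other promoters is not shown. These are matches of letters and say nothing of binding.

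Fzd7 (gene 14369, chr1:59482147-59486955), the Frizzled known in mice for keeping Lgr5+ crypt stem cells, had nearly equal means in both genotypes, 4.72 ± 1.13 FPKM in KO and 4.71 ± 1.46 FPKM in WT (SD, n = 2 each). It had 3.92 and 5.52 FPKM in KO, against 3.67 and 5.74 FPKM in WT. The WT libraries enclosed both KO libraries. Its log2 fold change of 0.03 (SE 0.31, edgeR adjusted p = 0.972) took either sign as libraries were left out, from -0.28 to 0.39.

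Fzd6, known in mice for the planar polarity of hair follicles, had 1.46 and 2.77 FPKM in KO, against 3.87 and 2.57 FPKM in WT. KO replicate 1 was lowest and WT replicate 1 highest, and the groups overlapped. That is a log2 fold change of -0.60 with an SE of 0.41 and an edgeR adjusted p of 0.515. Fzd8, whose outer domain has been crystallised with a Wnt, had 1.42 and 0.8 FPKM in KO, against 1.28 and 1.75 FPKM in WT. It differed by -0.40 on the log2 scale (SE 0.54, edgeR adjusted p = 0.746). Its groups overlapped too, on counts between 37 and 88.

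Fzd4, which also serves as the receptor for Norrin in retinal vessels, had 0.77 and 0.72 FPKM in KO, against 1.64 and 0.52 FPKM in WT. WT replicate 1, the library with high Cdh5, was highest and WT replicate 2 lowest. On the log2 scale KO differed from WT by -0.49 (SE 0.68, edgeR adjusted p = 0.748), and by 0.54 without WT replicate 1. Cdh5 made up most of the endothelial sum in that WT library, while Pecam1 and Tie1 were highest in KO libraries. The part of endothelial cells in the Fzd4 level was not tested. Fzd4 overlaps Tmem135 in the annotation, which had between 807 and 1752 counts per library, and no source used here states whether the libraries keep the strand.

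The 6 Frizzled genes of the set together had 63.2 and 63.5 FPKM in KO, against 53.6 and 54.2 FPKM in WT. The KO mean was 1.18 times the WT mean. Fzd2, Fzd3, Fzd9 and Fzd10 are outside the set and so outside this sum. Of these, Fzd2 had 1.57 and 1.19 FPKM in KO, against 0.91 and 2.96 FPKM in WT. Fzd5 alone made up 87.9% and 84.5% of the sum of the set in KO, against 77.6% and 76.5% in WT. The 5 other Frizzled genes of the set summed to 7.66 and 9.84 FPKM in KO, against 12 and 12.7 FPKM in WT. Fzd1 contributed 0.142% and 0.0473% of the Frizzled sum of the set in KO, against 2.89% and 3.95% in WT. The groups did not overlap in any of these 4 quantities. They are built from the same values, and Fzd5 and Fzd1 were already given as not overlapping, so the 4 are not separate results. A two-sided exact permutation test gave p = 0.333 for each, the smallest that 2 libraries against 2 allow, so none of them can pass.

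**Figure D3:**
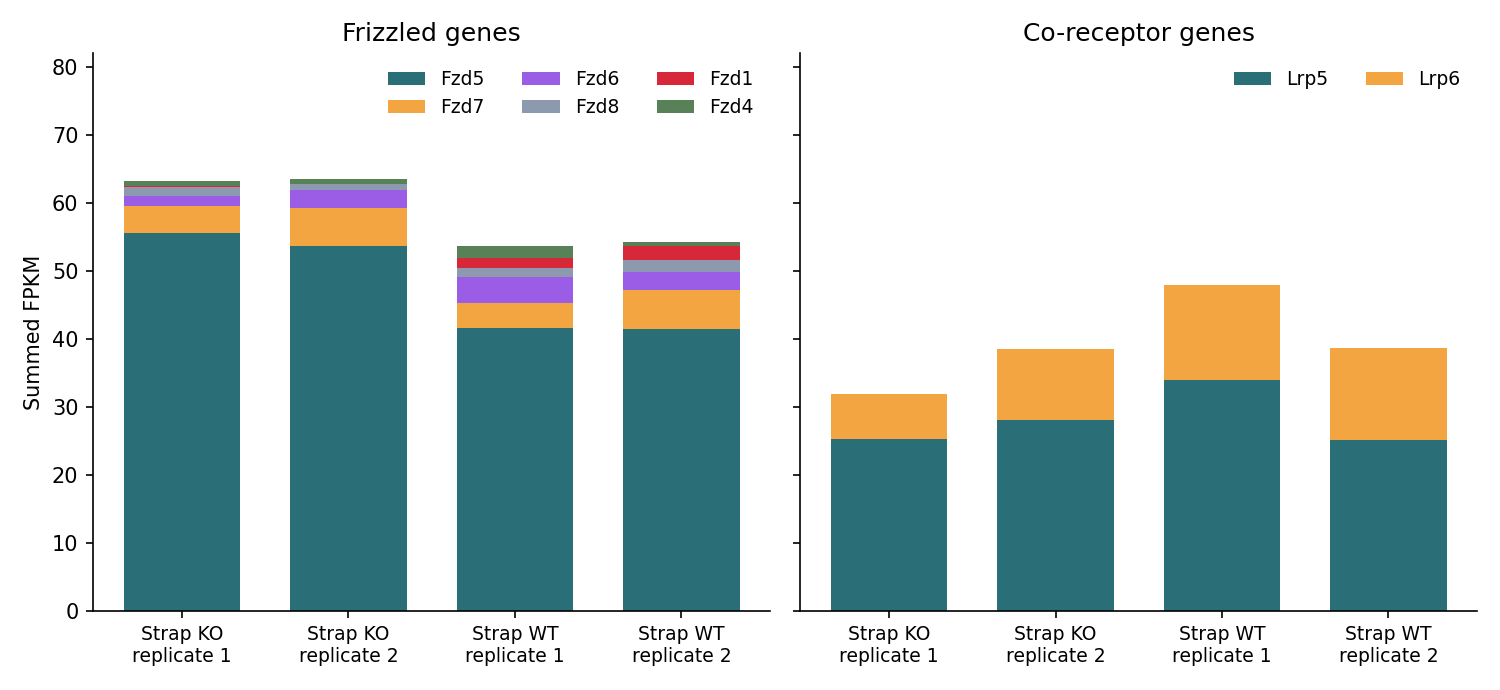
Summed FPKM in each library, with Strap KO bars at the left and Strap WT bars at the right. The left panel holds the 6 Frizzled genes of the set and the right panel holds Lrp5 and Lrp6. Colours are genes, listed in each panel. The Frizzled sum is 63.2 and 63.5 FPKM in KO, against 53.6 and 54.2 FPKM in WT, and Fzd1 is a visible layer in the WT bars alone.

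Lrp6 (gene 16974, chr6:134446476-134566913), the co-receptor whose tail is phosphorylated to bind Axin, was lower in KO than in WT without passing the test. It had 6.6 and 10.54 FPKM in KO, against 14.01 and 13.55 FPKM in WT. The groups did not overlap, and KO replicate 1 was lowest. With a log2 fold change of -0.67 (SE 0.24), edgeR gave an unadjusted p of 0.0317 and an adjusted p of 0.28. DESeq2 gave an adjusted p of 0.185, and over 13 settings it lay between 0.161 and 0.726. Its fold change on the log2 scale was -0.43 without KO replicate 1 and -0.97 without KO replicate 2.

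Lrp5 (gene 16973, chr19:3584825-3686585), the other co-receptor, had 25.31 and 27.99 FPKM in KO, against 33.95 and 25.12 FPKM in WT. WT replicate 1 stood highest and WT replicate 2 lowest, so the KO libraries lay within the WT range. KO differed by -0.12 on the log2 scale (SE 0.23, edgeR adjusted p = 0.831), and by 0.10 without WT replicate 1. Lrp5 was 3.83 and 2.66 times as abundant as Lrp6 in KO, against 2.42 and 1.85 times in WT, on the FPKM scale. The ratio was above 1 in all 4 libraries. The 2 co-receptors summed to 31.9 and 38.5 FPKM in KO, against 48 and 38.7 FPKM in WT. Per unit of Frizzled FPKM this was 0.505 and 0.607 in KO, against 0.895 and 0.713 in WT. The exact permutation p was 0.333 for the 3 quantities.

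Ryk had 25.14 and 21.45 FPKM in KO, against 22.35 and 30.22 FPKM in WT. The groups overlapped and differed by -0.13 on the log2 scale (SE 0.25, edgeR adjusted p = 0.825). Porcn, the acyltransferase of the endoplasmic reticulum that lipid-modifies Wnt proteins, had 2.01 and 2.18 FPKM in KO, against 2.55 and 1.07 FPKM in WT. Its KO libraries lay between the WT libraries, and KO differed by 0.24 on the log2 scale (SE 0.57, edgeR adjusted p = 0.866). Porcn lies on chromosome X. Xist had 197 and 0.954 CPM in KO and 968 and 0.195 CPM in WT, so each genotype had 1 library with high Xist.

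Of 11 further Wnt receptor genes, 6 passed the filter on low counts. All 6 had a lower fitted level in KO, and 4 of them overlapped between the groups. Their log2 fold changes had a median of -0.68, and edgeR called 0 of them. Without WT replicate 1, 1 was higher and 5 lower, with a median of -0.92. Lrp4, a co-receptor best known at the neuromuscular synapse, had 4.31 and 5.89 FPKM in KO, against 10.83 and 8.82 FPKM in WT (log2 fold change -0.91, SE 0.22, adjusted p = 0.21). DESeq2 called it, with an adjusted p of 0.033. Fzd3, a Frizzled of planar polarity, had 28 and 5 counts in KO, against 109 and 48 in WT (-2.16, SE 0.91, adjusted p = 0.327). Fzd9 (-1.14) and Ptk7, a polarity co-receptor (-0.44), overlapped between the groups. Fzd10 did not pass the filter, with 0 and 2 counts in KO, against 55 and 8 in WT.

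Planar polarity core genes, which encode proteins that work with Frizzleds to orient epithelial cells, were tested for 7 of 9 genes. Of these, 6 were lower, all 6 with no overlap between KO and WT, and 0 were called by edgeR. Such an order held for 24.6% of all genes tested. Their median on the log2 scale was -0.65, and -0.66 without WT replicate 1. Vangl2 and Prickle1 passed the filter through their WT counts alone, so the filter bears on the direction count and the median. Vangl2 had 6 and 1 counts in KO, against 119 and 66 in WT (-4.59, SE 0.89, edgeR adjusted p = 0.162, DESeq2 adjusted p = 0.000128). Prickle1 had 3 and 1 counts in KO, against 19 and 18 in WT. Celsr1 had 1.9 and 2.08 FPKM in KO, against 3.21 and 3.18 FPKM in WT (-0.65, SE 0.20, adjusted p = 0.261), and Celsr2 had a log2 fold change of -0.78.

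Wnt ligand genes were scarce in all 4 libraries. Of 19 genes, 11 and 9 were listed in KO and 12 in each WT library, and the summed level was 8.61 and 8.25 CPM in KO, against 16.4 and 18.9 CPM in WT. Only 6 passed the filter, all lower in KO and 0 called by edgeR or DESeq2. Wnt5a passed through its WT counts alone, so the filter bears on this direction count and on the median. The median log2 fold change was -1.30, and without WT replicate 1 it was -0.90 with 2 higher and 4 lower. Wnt3, a ligand that Paneth cells supply in mice, had 1.34 and 1.23 FPKM in KO, against 1.38 and 4.14 FPKM in WT, so WT replicate 2 alone was high. Wnt5a, a ligand of beta-catenin-independent signalling, had 2 and 0 counts in KO, where the second library did not list it, against 23 and 25 counts in WT. Per depth that is 4.3% of WT (exact 95% interval 0.506% to 16.4%, counting error only). Wnt6 had 12 and 6 counts in KO, against 50 and 15 in WT, and Wnt11 overlapped between the groups. Wnt5b and Wnt9b, which did not pass the filter and were picked after their values were seen, ran the other way. Wnt5b had 10 and 11 counts in KO, against 7 and 3 in WT.

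Genes that process ligands and mature receptors showed no common direction. Of 7 processing and export genes 5 were tested, with 3 higher, 2 lower and 0 called, around a median of 0.14. Wls, the carrier of Wnt proteins to the cell surface, had 15.51 and 9.54 FPKM in KO, against 10.14 and 32.04 FPKM in WT. Notum, an enzyme that removes the Wnt lipid, had 13 and 0 counts in KO, against 795 and 25 counts in WT, so WT replicate 1 stood far above the others. Tmed5 and Tmed10, cargo receptors of early secretion, had log2 fold changes of 0.73 and 0.14. Among receptor chaperones and Norrin partners 4 of 7 were tested, 1 higher and 3 lower, with a median of -0.30. Shisa5 had 93.76 and 91.26 FPKM in KO, against 39.44 and 52.86 FPKM in WT (0.99, SE 0.23, edgeR adjusted p = 0.199, DESeq2 adjusted p = 0.0136). Tspan12, a partner of Fzd4 in Norrin signalling, had 8.13 and 6.9 FPKM in KO, against 15.42 and 12.52 FPKM in WT (-0.85, SE 0.26, edgeR adjusted p = 0.249). Shisa2 had a log2 fold change of -0.58, and Mesd (in the files under its older symbol Mesdc2), the chaperone that Lrp5 and Lrp6 need to leave the endoplasmic reticulum, of -0.01.

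Around the receptors, of 15 genes for R-spondins, their receptors and partners of receptor removal 9 were tested, 2 higher and 7 lower, with a median of -0.43. DESeq2 called Lgr5 and Rnf43 lower, and edgeR called 0. Lgr5, the R-spondin receptor of crypt stem cells, had 0.97 and 1.4 FPKM in KO, against 7.47 and 15.31 FPKM in WT (-3.24, SE 0.41, edgeR adjusted p = 0.1). Rnf43 had 6.38 and 9.23 FPKM in KO, against 17.53 and 15.97 FPKM in WT (-1.08, SE 0.22, edgeR adjusted p = 0.175). Znrf3, which with Rnf43 encodes a ligase that removes Frizzleds from the membrane, had 1.96 and 2.86 FPKM in KO, against 4.67 and 3.23 FPKM in WT (-0.70, SE 0.31, edgeR adjusted p = 0.341). Sdc1, a cell-surface proteoglycan, had a log2 fold change of -0.43. Secreted and membrane antagonists were tested for 6 of 16 genes, with 2 higher, 4 lower and 0 called by edgeR. Their median was -3.30, and without WT replicate 1 it was -1.20 with 3 higher and 3 lower. Apcdd1, Dkk3 and Wif1 passed the filter through their WT counts alone, so the filter bears on this median. DESeq2 called Apcdd1 and Wif1 lower. Dkk3 (-5.87) and Wif1 (-6.63) were highest in WT replicate 1, as was Cdh5. Cdh5 made up most of the endothelial sum there, while the endothelial markers Pecam1 and Tie1 were highest in KO libraries. The part of endothelial cells in these differences was not tested. Igfbp4 (-0.73) overlapped. Apcdd1 had 0 and 1 counts in KO, against 89 and 40 in WT, or 0.8% of WT per depth (exact 95% interval 0.0201% to 4.54%).

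All 16 cytoplasmic partners of the receptors were tested, and 8 were higher and 8 lower around a median of -0.03, with 0 called by edgeR or DESeq2. Dvl1, a Dishevelled gene, had 28.61 and 32.25 FPKM in KO, against 23.35 and 21.79 FPKM in WT (0.46, SE 0.18, edgeR adjusted p = 0.311). Gsk3a, which encodes a kinase of beta-catenin and Lrp6, differed by 0.47 on the log2 scale, as did Ap2m1, of the clathrin adaptor. Dab2, an endocytic adaptor, had 10 and 9 counts in KO, against 45 and 29 in WT.

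**Figure D4:**
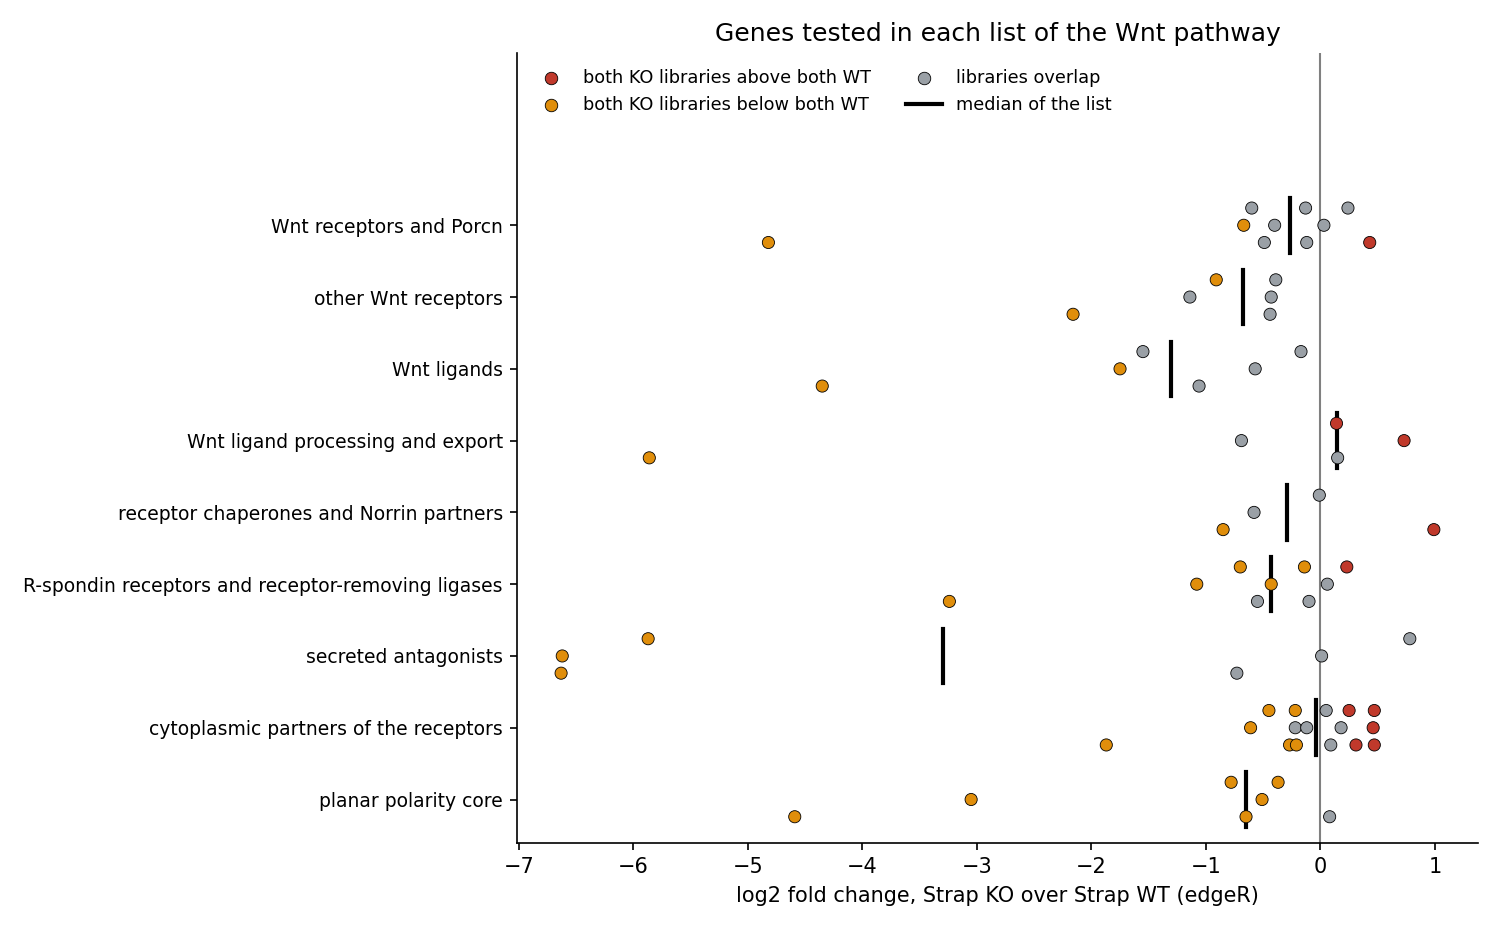
Log2 fold change, Strap KO over Strap WT, of every gene tested in 9 lists of the Wnt pathway, 1 list per row, with a black bar at the median of the list. Red points have both KO libraries above both WT libraries, orange points both below, and grey points overlap. Other receptors, ligands and planar polarity genes have medians of -0.68, -1.30 and -0.65, and the cytoplasmic partners have a median of -0.03. The medians hold only genes that passed the filter, some of them through their WT counts alone.

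The genes most like Fzd5 over the 4 libraries, by the root mean square distance of log2 CPM after centring each gene, were Yes1 (0.0145), Rnaseh1 (0.0155) and Carkd (0.0186). Those most like Lrp5 were Krt20 (0.016), Hipk1 (0.019) and Rom1 (0.0255). With 4 libraries such likeness is common: 563 of 11251 genes lay within 0.1 of Fzd5 and 333 within 0.1 of Lrp5.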

How the data were processed

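Polyadenylated RNA of 4 adenoma libraries was used, 2 per genotype. RSEM 1.2.12, Bowtie2 2.2.5 and build mm10 stand in the submitters' processing notes, with no roles. Expected counts for each gene were deposited, per the file headers. The deposited FPKM values stand beside them, per the file headers, down to 0.01, so an absent gene is called not listed and entered as 0. RSEM shares reads among similar genes.

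Tables were joined on gene identifiers (pandas 2.3.3). In each library 1 row without a gene, at most 0.000233% of counts, was left out. Counts were rounded and tested with the edgeR 4.0.16 quasi-likelihood test (R 4.3.3; genotype as the term, TMM, filterByExpr, Benjamini-Hochberg over 12769 genes). SE is the log2 fold change over the root of F. Alternatives used DESeq2 1.42.0, limma 3.58.1 on log2(FPKM + 1) or log2(FPKM + 0.1), other scalings and filters, a replicate block and each library left out. Coordinates are RefSeq GRCm38.p6.

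The genes and 21 lists were chosen with earlier results of these data known. Of each Wnt pathway list up to 4 genes with the smallest p were named, with all of the set, Strap, Apc and the 3 nearest patterns of Fzd5 and Lrp5. Marker lists were given as sums. Genes named beyond this, markers included, were chosen after their values were seen.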

Additional observations from a re-analysis of the deposited data

How the results depend on the processing

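The number of genes of the set called lower in KO was 0 in edgeR and 1, Fzd1, in DESeq2, with the replicate block and with a crossed replicate block chosen after seeing the data. The edgeR adjusted p of Fzd1 was 0.0494 with the replicate block and 0.0333 with the crossed block. Neither block changed another call of the set. None was called higher in any setting. Same-numbered libraries deviated with a correlation of -0.123 and nothing in the labels pairs them, but the number coincided with the Xist pattern, so the replicate block is also a block for that pattern. Over all genes edgeR called 1 higher and 0 lower, against 46 and 70 with the block, 65 and 99 with the crossed block, 19 and 8 without a filter, and 41 and 133 without WT replicate 2. Fzd4 did not pass the filter of 50 counts. Of 89 fold changes of the set under other settings 1 changed sign, Fzd7 at -0.00569 with that filter. Of 40 with a library left out 7 did: Fzd4 (-1.09 to 0.54), Fzd7 (-0.28 to 0.39, with -0.17 as the other change of sign), Lrp5 (-0.32 to 0.10), Ryk (-0.35 to 0.10, with 0.03 as the other) and Porcn (-0.24 to 0.94). The cause was not tested. Leaving out single libraries, chosen after seeing the data for the pathway lists, turned the median of the processing genes from 0.14 to -0.04 (without KO replicate 1) and that of the receptor chaperones from -0.30 to 0.14 (without WT replicate 2). The log2 ratio of the summed Frizzled FPKM, 0.23, was 0.32 with CPM and 0.22 with TPM. Without WT replicate 2, 7 of 9 receptors kept their rank, and all 9 did without any other library (7 to 9). Leaving out a library leaves 1 in its genotype, assumed to vary like the other. Depth limits Fzd1 in KO, with 6 and 2 counts.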

Other observations

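Marker lists not set beside a gene above had these summed levels. Macrophage markers, with 4 and 8 of 8 listed in KO and 8 and 7 in WT, summed to 4.64 and 8.04 CPM in KO, against 15.9 and 8.05 CPM in WT. B and plasma cell markers summed to 2.66 and 12.7 CPM in KO, against 12.9 and 4.35 CPM in WT. The small intestine list summed to 15800 and 14700 CPM in KO, against 20200 and 9070 CPM in WT, and the colon list to 882 and 1710 CPM in KO, against 3640 and 2190 CPM in WT. Of the sex-linked genes, Ddx3y had 0 and 33.3 CPM in KO, against 0 and 39.1 CPM in WT, the reverse of Xist.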
